A study of Mus musculus with 8 samples.

Results

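The genes described here were 10 members of the transforming growth factor beta (TGF-beta) pathway, chosen by symbol from the 15047 genes of the deposited expression table: the ligand genes Tgfb1, Tgfb2, Tgfb3 and Inhba, the latency genes Ltbp1 and Ltbp2, the receptor genes Tgfbr1 and Tgfbr2, and the feedback inhibitors Smad7 and Skil. All 10 were found. Gene expression was measured by RNA-Seq in pancreas from 8 mice: 3 LFD, 3 HFD and 2 ob/ob. The LFD and HFD mice were male wild type C57BL/6 animals given their diet for 10 weeks from an age of 4 weeks, and fat supplied 60% of the calories of the HFD. The ob/ob mice were C57BL/6J males that lack leptin and ate standard chow. Every mouse also carried an orthotopic graft of mT organoids, as the study's methods give it, a line grown from pancreatic tumors of mice with a Pdx1-Cre driver, so RNA of the graft may be mixed with that of the host pancreas in any sample, LFD controls included, and its share was not measured here. The labels do not mention the graft, and the age at collection is not given in the sources used here. Before grafting, the organoids were kept in a medium that contained a TGF-beta type I receptor inhibitor. The values are rlog values, which are counts on a log2 scale, corrected for library size and shrunken at low expression. A unit is thus a 2-fold difference of the shrunken values. Levels of different genes are compared here only for the ligand pairs, as differences within a mouse.

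The TGF-beta ligands are secreted as latent complexes that latent TGF-beta binding proteins anchor to the extracellular matrix, from which integrins and proteases release the active ligand. Active ligand binds the type II receptor, which phosphorylates the type I receptor, and SMAD2 and SMAD3 then enter the nucleus with SMAD4 to turn on matrix genes and the pathway's own inhibitors. In the pancreas the pathway is known for activating stellate cells into matrix-producing fibroblasts and for restraining the growth of ductal tumor cells, many of which lose it.

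The promoters of Tgfb1, Tgfb2 and Inhba are shown because these ligand genes share a pathway but have unlike start regions. Across the mice, Tgfb1 and Inhba nevertheless had like values (Pearson's r = 0.948). Tgfb2 differed from both (r = 0.41 with Tgfb1 and 0.291 with Inhba). No window was available for Tgfb3. The promoter of Ltbp2 is shown because this gene had the largest obese minus LFD difference among the members. Each run is the 250 bases before the annotated start, 5′ to 3′ on the gene's strand, from RefSeq on GRCm38.p6. The windows are chr7:25686752-25687001 on the plus strand for Tgfb1, chr1:186705990-186706239 on the minus strand for Tgfb2, chr13:16011601-16011850 on the plus strand for Inhba and chr12:84876492-84876741 on the minus strand for Ltbp2. Capitals mark matches on either strand to a TATA box (TATAAA), a GC box (GGGCGG), an E box (CACGTG) or a short SMAD element (CAGAC).
Tgfb1: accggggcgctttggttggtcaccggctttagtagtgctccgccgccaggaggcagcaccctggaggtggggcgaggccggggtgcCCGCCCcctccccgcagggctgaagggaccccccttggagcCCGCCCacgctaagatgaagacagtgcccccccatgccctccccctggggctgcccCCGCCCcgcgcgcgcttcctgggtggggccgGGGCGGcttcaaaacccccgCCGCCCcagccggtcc
Tgfb2: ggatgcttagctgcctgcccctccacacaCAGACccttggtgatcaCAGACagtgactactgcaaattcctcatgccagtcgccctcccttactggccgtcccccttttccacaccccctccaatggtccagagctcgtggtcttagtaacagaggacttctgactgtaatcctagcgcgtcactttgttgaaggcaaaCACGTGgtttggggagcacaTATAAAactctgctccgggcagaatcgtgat
Inhba: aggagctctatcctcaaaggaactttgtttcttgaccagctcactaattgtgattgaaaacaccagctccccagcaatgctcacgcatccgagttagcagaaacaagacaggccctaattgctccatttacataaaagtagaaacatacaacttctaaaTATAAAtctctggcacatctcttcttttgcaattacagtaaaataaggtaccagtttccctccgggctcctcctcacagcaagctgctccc
Ltbp2: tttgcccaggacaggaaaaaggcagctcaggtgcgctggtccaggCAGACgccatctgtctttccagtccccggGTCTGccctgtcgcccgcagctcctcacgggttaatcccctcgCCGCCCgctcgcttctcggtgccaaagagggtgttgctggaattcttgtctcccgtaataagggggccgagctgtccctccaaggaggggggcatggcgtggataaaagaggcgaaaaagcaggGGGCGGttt

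The Tgfb1 window held 5 GC boxes and no TATAAA, and its GC content was 75.2%. The Tgfb2 window held TATAAA 31 bases and an E box 51 bases before the start, with a pair of short SMAD elements farther upstream and a GC content of 53.6%. The Inhba window held TATAAA 91 bases before the start and none of the other motifs, with a GC content of 43.2%. The Ltbp2 window held 2 short SMAD elements and 2 GC boxes, the nearer 9 bases before the RefSeq start. The Gencode start of Ltbp2 lies farther upstream, at 84876532. The end of this window, with the nearer GC box, is thus inside the Gencode gene. Of all 32851 RefSeq windows of this length, 32.7% held a GC box, 12.4% TATAAA, 6.02% the E box and 42.2% the short SMAD element. Of the 10 members, 7 had a window in the table, with 9 windows in all, since Ltbp1 and Tgfbr1 have 2 each. None of the 9 windows held the SMAD palindrome GTCTAGAC, found in 0.167% of all windows, or an AP-1 site (TGANTCA), found in 6.75%. A cAMP response element (TGACGTCA), found in 1.55% of all windows, was in 1 Ltbp1 window. Such matches describe the letters of these windows and are not evidence of binding.

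The labelled tissue was checked first. The acinar markers, which make the digestive enzymes, were all measured, 26 of 26, with a mean rlog value between 14.05 and 18.25 per mouse. Converted back to a linear scale, they made up 60.6, 61.5 and 62.8% of the summed values of LFD replicates 1, 2 and 3, 59.8, 40.4 and 21.2% of HFD replicates 1, 2 and 3, and 57.2 and 23.8% of ob/ob replicates 1 and 2. HFD replicate 1 thus lay near the LFD mice on this measure, while HFD replicates 2 and 3 and ob/ob replicate 2 stood apart. LFD replicate 2 had the highest B lymphocyte marker mean, 6.00 against 3.54 to 4.28 in the other mice. Read totals were not used here, so depth is unknown and the only error is the spread between mice. In bulk RNA, fewer cells of a type and less RNA per cell cannot be told apart.

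The first question was whether obesity, by diet or by genotype, went with different expression of the pathway's own components. Higher mean values were found for 9 of the 10 members in HFD against LFD and for 9 in ob/ob against LFD. Of all 15047 genes, 7879 were higher in HFD and 7988 in ob/ob. No member had a limma adjusted p-value under 0.05. Nor did any of the 15047 genes (0.0% called) in HFD, ob/ob or obese against LFD or in ob/ob against HFD. The median log2 difference of the members was 0.65 in HFD and 1.07 in ob/ob, against 0.03 and 0.04 over all genes. In HFD, 4 members (Tgfb3, Inhba, Ltbp2 and Tgfbr1) were higher with an unadjusted p-value under 0.05, where 11.5% of all genes were, and 5 had groups that did not overlap, where 12.9% of all genes did not and lay higher. In ob/ob, 5 members (Tgfb3, Inhba, Ltbp1, Ltbp2 and Tgfbr2) were higher with an unadjusted p-value under 0.05, where 11.6% of all genes were, and 6 did not overlap with LFD, where 24.1% did not and lay higher. Both comparisons use the same 3 LFD mice, so they are not independent.

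With the HFD and ob/ob group means averaged as obese, all 10 members had a mean above LFD, as did 8056 of all 15047 genes. The median difference of the members was 0.95, against 0.04 over all genes. Of the members, 7 had an unadjusted p-value under 0.05, where 14.5% of all genes were higher. Tgfb3, Inhba and Ltbp2 had 5 obese mice that all lay above the 3 LFD mice, where 9.40% of all genes did. The smallest limma adjusted p-value of a member was 0.116, for Ltbp2. Above the highest LFD mouse lay 5 members in HFD replicate 1, 8 in HFD replicate 2, 9 in HFD replicate 3, 6 in ob/ob replicate 1 and 9 in ob/ob replicate 2. Of all genes, 26.4, 38.2 and 39.7% lay above the highest LFD mouse in HFD replicates 1, 2 and 3, and 31.2 and 41.2% in ob/ob replicates 1 and 2.

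**Figure D1:**
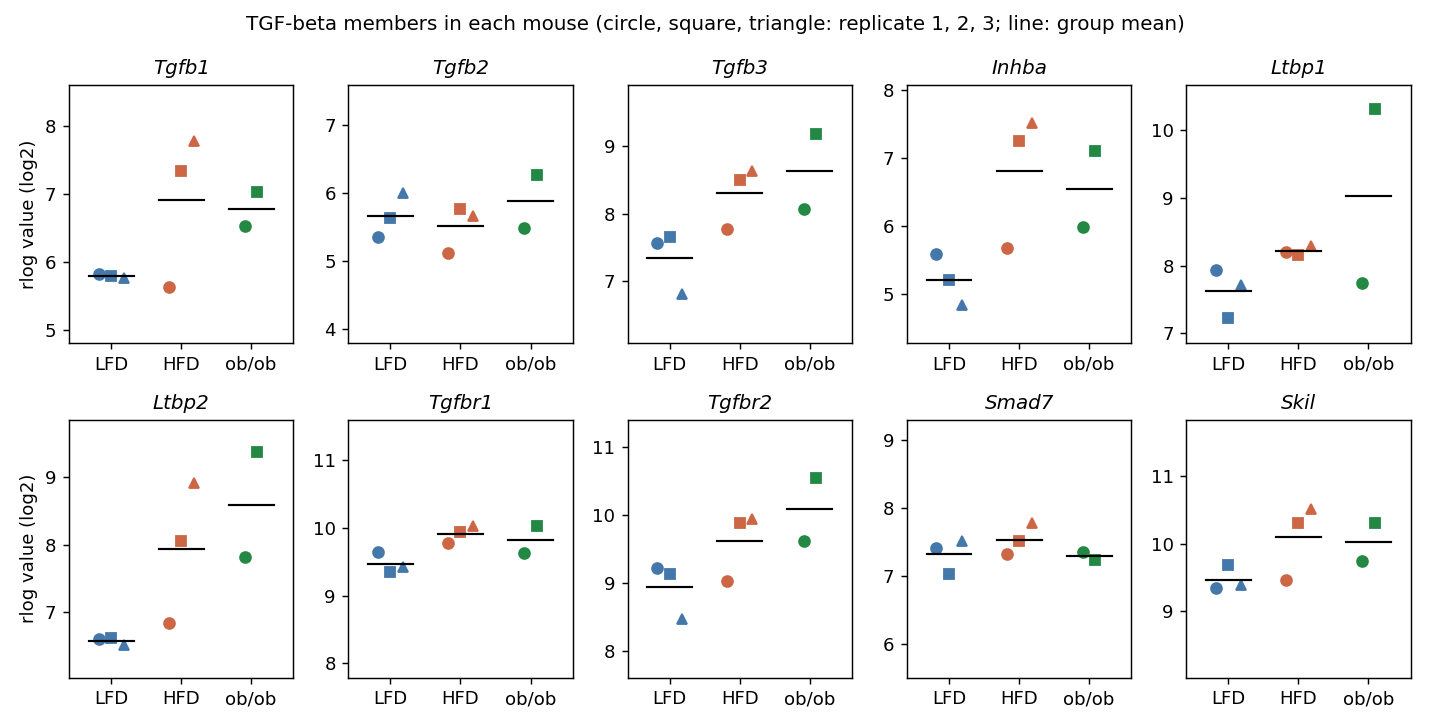
The rlog value (log2) of each member is plotted for every mouse by group, with symbols for the replicate number, a line for the group mean and an axis of equal span in each panel. Tgfb3, Inhba and Ltbp2 lie above all LFD mice in every HFD and ob/ob mouse, while Tgfb2 and Smad7 overlap between groups.

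HFD replicate 1 decided the calls. Without it, 4 members had an adjusted p-value under 0.05 in HFD against LFD, where 18.7% of all genes did: Tgfb1 (log2 difference 1.77, adjusted p = 0.0137), Inhba (2.18, 0.0165), Skil (0.94, 0.0257) and Ltbp2 (1.89, 0.026). In obese against LFD, 6 members passed without it, where 22.1% of all genes did, namely Tgfb1 (1.38, adjusted p = 0.0124), Inhba (1.76, 0.0146), Ltbp2 (1.95, 0.0151), Skil (0.75, 0.0244), Tgfb3 (1.24, 0.0257) and Tgfbr2 (1.06, 0.0261). A fit that leaves out an ob/ob mouse keeps only 1, so the spread of that group is not measured. The spread used is then that of the LFD and HFD mice. Without ob/ob replicate 1, the ob/ob minus LFD difference of Ltbp1 was 2.68, from a single ob/ob mouse. In obese against LFD without ob/ob replicate 1, only Ltbp1 passed among the members (1.63, adjusted p = 0.0433), where 3.16% of all genes did. The obese mean then gives the single ob/ob mouse the weight of the whole HFD group. The labels give no reason to leave either mouse out, and the values with all 8 mice are the main ones. The count of members with an unadjusted p-value under 0.05, all of them higher, varied as single mice were left out. It did not always follow that of all genes. In obese without HFD replicate 1 it stayed at 7, while the share of all genes higher was 21.2%, against 14.5% with all mice. In HFD it went from 4 to 7 without HFD replicate 1 (19.8% of all genes higher), to 2 without LFD replicate 2 (9.23%) and to 1 without LFD replicate 3, HFD replicate 2 or HFD replicate 3 (6.04 to 6.89%). In ob/ob it went from 5 to 0 without ob/ob replicate 2 (4.03%), to 2 without LFD replicate 3 (7.01%) and to 3 without LFD replicate 1, LFD replicate 2 or HFD replicate 2 (8.61 to 10.5%). In obese it went from 7 to 2 without LFD replicate 3 (8.44%), to 3 without ob/ob replicate 2 (8.94%) and to 4 without LFD replicate 2, HFD replicate 2 or HFD replicate 3 (10.9 to 12.3%).

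Single mice also moved the sizes. Without ob/ob replicate 2, the median difference of the members was 0.48 in ob/ob, against 1.07, and 0.57 in obese, against 0.95. The ob/ob minus LFD difference was then 0.72 for Tgfb3, 0.78 for Inhba, 0.12 for Ltbp1, 1.23 for Ltbp2, 0.16 for Tgfbr1, 0.69 for Tgfbr2 and 0.28 for Skil. Without HFD replicate 3, the HFD minus LFD difference was 0.69 for Tgfb1, 0.86 for Ltbp2 and 0.41 for Skil. That of Tgfbr2 was 0.45 without LFD replicate 3, and that of Ltbp1 was 0.39 without LFD replicate 2.

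Among the ligands, Tgfb1 encodes the most widely expressed isoform and lies at chr7:25687002-25705077. Its rlog values were 5.82, 5.80 and 5.76 in LFD, 5.63, 7.34 and 7.79 in HFD, and 6.53 and 7.04 in ob/ob. The LFD mice were close together (SD 0.03, n = 3), HFD replicate 1 lay below all of them, and the other 4 obese mice lay above. The log2 difference was 1.13 ± 0.50 (SE) in HFD (adjusted p = 0.254) and 0.99 ± 0.56 in ob/ob (adjusted p = 0.34). Both errors rest on a variance shared by the 3 groups, while the SD was 1.14 in HFD, 0.36 in ob/ob and 0.03 in LFD.

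Tgfb2, at chr1:186622792-186705989, encodes an isoform that needs the coreceptor betaglycan for high-affinity binding. Its values were 5.35, 5.63 and 6.00 in LFD, 5.12, 5.77 and 5.66 in HFD, and 5.49 and 6.27 in ob/ob. The 3 groups overlapped, with the lowest value in HFD replicate 1 and the highest in ob/ob replicate 2. The obese minus LFD difference was 0.04 ± 0.29 (SE, 95% interval -0.62 to 0.70, adjusted p = 0.943), and it was -0.14 in HFD and 0.22 in ob/ob.

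Tgfb3, at chr12:86056745-86079041, encodes an isoform known from palate fusion and wound healing. Its values were 7.57, 7.65 and 6.82 in LFD, 7.78, 8.49 and 8.62 in HFD, and 8.07 and 9.17 in ob/ob. Every obese mouse lay above every LFD mouse, HFD replicate 1 by the smallest margin, and LFD replicate 3 was the lowest. The difference was 0.95 ± 0.36 (SE) in HFD (log2 scale, adjusted p = 0.221) and 1.27 ± 0.41 in ob/ob (adjusted p = 0.21). Ttll5 overlaps Tgfb3 on the opposite strand, and the strand of the library is not given in the sources used here, so reads of the shared stretch cannot be told apart.

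Inhba, at chr13:16011851-16031621, encodes the beta A subunit of activin A, which uses its own receptors but the same SMAD2 and SMAD3. Its values were 5.59, 5.20 and 4.84 in LFD, 5.68, 7.25 and 7.52 in HFD, and 5.99 and 7.11 in ob/ob. All 5 obese mice lay above the 3 LFD mice, though HFD replicate 1 exceeded LFD replicate 1 only slightly, and the HFD and ob/ob values overlapped. The log2 difference was 1.61 ± 0.51 (SE) in HFD (adjusted p = 0.193), the largest among the members in that comparison, and 1.34 ± 0.57 in ob/ob (adjusted p = 0.262).

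The balance of the 3 TGF-beta isoforms was then compared within each mouse, as the rlog value of one ligand minus that of another. The size of such a difference also depends on transcript length, so only its change between groups is read. Shrinkage at low expression may be unequal for the genes of a pair, and its part in this change was not tested. Tgfb2 minus Tgfb1 was -0.47, -0.17 and 0.25 in LFD, -0.51, -1.57 and -2.13 in HFD, and -1.04 and -0.77 in ob/ob. All 5 obese mice lay below the 3 LFD mice, HFD replicate 1 by only a narrow margin. The mean was -1.20 ± 0.65 (SD, n = 5) in obese and -0.13 ± 0.36 (SD, n = 3) in LFD mice, a difference of -1.07. The two-sided exact permutation p was 0.0357, the smallest that the 56 choices of mice allow, and 0.0536 after Benjamini-Hochberg adjustment over the 3 ligand pairs.

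Tgfb3 minus Tgfb2 was 2.22, 2.01 and 0.82 in LFD, 2.66, 2.71 and 2.96 in HFD, and 2.57 and 2.90 in ob/ob. The obese mice, with an SD of 0.16 (n = 5), again lay on one side of the LFD mice, of which LFD replicate 3 was the farthest away. The difference in means was 1.08 (exact permutation p = 0.0357, adjusted p = 0.0536), and it was 0.65 without LFD replicate 3. Tgfb3 minus Tgfb1 was 1.75, 1.84 and 1.07 in LFD, 2.15, 1.14 and 0.83 in HFD, and 1.54 and 2.13 in ob/ob. These values overlapped, with a difference of 0.00 (exact permutation p = 0.929). Both pairs with Tgfb2 were at the smallest p of this design, and with 3 pairs the adjusted p could fall under 0.05 only if all 3 were. Such full separation was common among single genes. Of all 15047, 1414 lay higher and 1362 lower in every obese mouse than in every LFD mouse. The part of the tissue's makeup in these pairs was not tested.

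**Figure D2:**
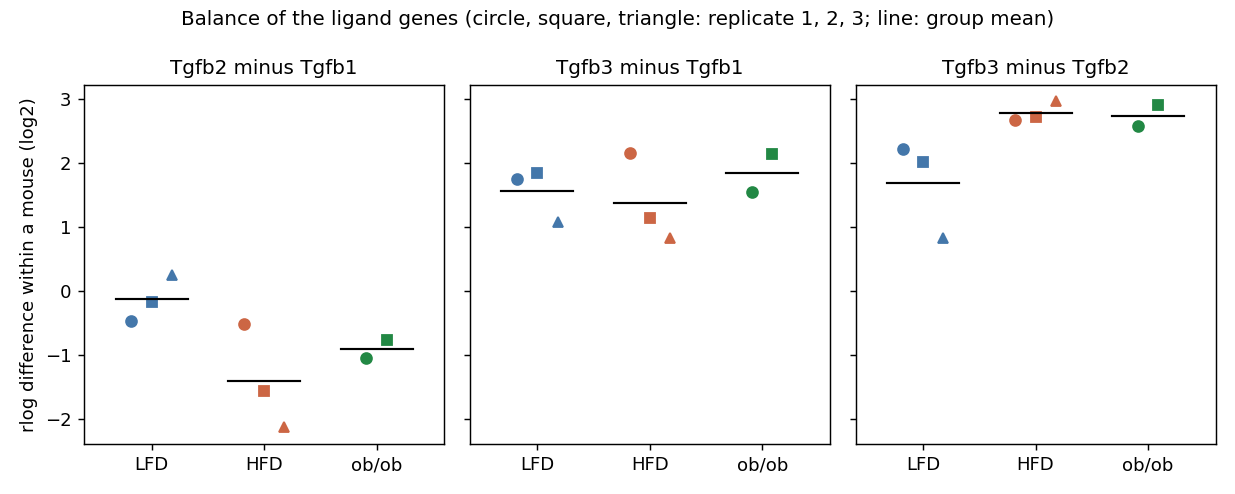
Within-mouse rlog differences (log2) between pairs of ligand genes are plotted by group, with a symbol for each replicate and a line for the group mean. Tgfb2 minus Tgfb1 lies lower in all 5 obese mice and Tgfb3 minus Tgfb2 higher, while Tgfb3 minus Tgfb1 overlaps between groups.

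Of the latency genes, Ltbp2 had the larger difference. Ltbp2, at chr12:84783212-84876532, encodes a matrix protein of the same family as Ltbp1 that, unlike it, does not bind the latent TGF-beta complex and is known from elastic fibers. Its values were 6.61, 6.63 and 6.52 in LFD, 6.84, 8.05 and 8.91 in HFD, and 7.81 and 9.36 in ob/ob. The LFD mice had an SD of 0.06 (n = 3), all 5 obese mice lay above them, and HFD replicate 1 was the closest. The log2 difference was 1.35 ± 0.53 (SE) in HFD (adjusted p = 0.227) and 2.0 ± 0.60 in ob/ob (adjusted p = 0.202). For obese against LFD it was 1.67 ± 0.48 (adjusted p = 0.116), 3.19-fold on the linear scale, above that of 99.1% of all genes.

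Ltbp1, at chr17:75005568-75392512, encodes the protein that anchors latent TGF-beta in the matrix. Its values were 7.93, 7.22 and 7.72 in LFD, 8.20, 8.15 and 8.29 in HFD, and 7.74 and 10.30 in ob/ob. The HFD mice were close together and just above the LFD mice, while ob/ob replicate 1 fell inside the LFD range and ob/ob replicate 2 was far above all other mice. On the log2 scale the difference was 0.59 ± 0.54 (SE) in HFD (adjusted p = 0.551) and 1.40 ± 0.61 in ob/ob (adjusted p = 0.263). The ob/ob difference rests on ob/ob replicate 2. Both errors use the shared variance, which the ob/ob mice widen: their SD was 1.81, against 0.07 for the HFD mice and 0.36 for the LFD mice. With only the groups compared, the HFD difference of Ltbp1 had a limma p of 0.0287 (adjusted p = 0.197), against 0.308 in the main fit. The ob/ob difference then had 0.0637, against 0.0485.

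Of the receptor genes, Tgfbr1, at chr4:47353222-47414931, encodes the type I receptor, the kinase that phosphorylates SMAD2 and SMAD3. Its values were 9.64, 9.35 and 9.42 in LFD, 9.77, 9.93 and 10.03 in HFD, and 9.63 and 10.02 in ob/ob. The HFD mice lay above all LFD mice, and ob/ob replicate 1 fell just below LFD replicate 1. Against LFD the log2 difference was 0.44 ± 0.17 (SE) in HFD (adjusted p = 0.225) and 0.35 ± 0.19 in ob/ob (adjusted p = 0.328).

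Tgfbr2, at chr9:116084293-116175360, encodes the type II receptor that binds the ligand first. Its values were 9.21, 9.12 and 8.46 in LFD, 9.02, 9.88 and 9.94 in HFD, and 9.62 and 10.54 in ob/ob. HFD replicate 1 fell inside the LFD range and the other 4 obese mice lay above it. The log2 difference was 0.69 ± 0.34 (SE) in HFD (adjusted p = 0.294) and 1.15 ± 0.38 in ob/ob (adjusted p = 0.215).

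The inhibitors Smad7 and Skil, both induced by TGF-beta itself, had unlike values. Smad7 encodes the inhibitory SMAD that blocks the type I receptor. Its values were 7.42, 7.03 and 7.52 in LFD, 7.32, 7.52 and 7.78 in HFD, and 7.35 and 7.24 in ob/ob. The groups overlapped, and both ob/ob mice fell inside the LFD range. The obese minus LFD difference was 0.09 ± 0.19 (SE, 95% interval -0.34 to 0.53, adjusted p = 0.778). Its variance over the 8 mice ranked at the percentile 17.5 of all genes, the lowest among the members, while that of Ltbp2 ranked at 96.3.

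Skil encodes SnoN, a corepressor that binds SMAD proteins in the nucleus. Its values were 9.34, 9.68 and 9.39 in LFD, 9.46, 10.30 and 10.51 in HFD, and 9.75 and 10.31 in ob/ob. HFD replicate 1 fell inside the LFD range and the other 4 obese mice lay above it. Log2 differences were 0.62 ± 0.29 (SE) in HFD (adjusted p = 0.268) and 0.56 ± 0.32 in ob/ob (adjusted p = 0.346).

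**Figure D3:**
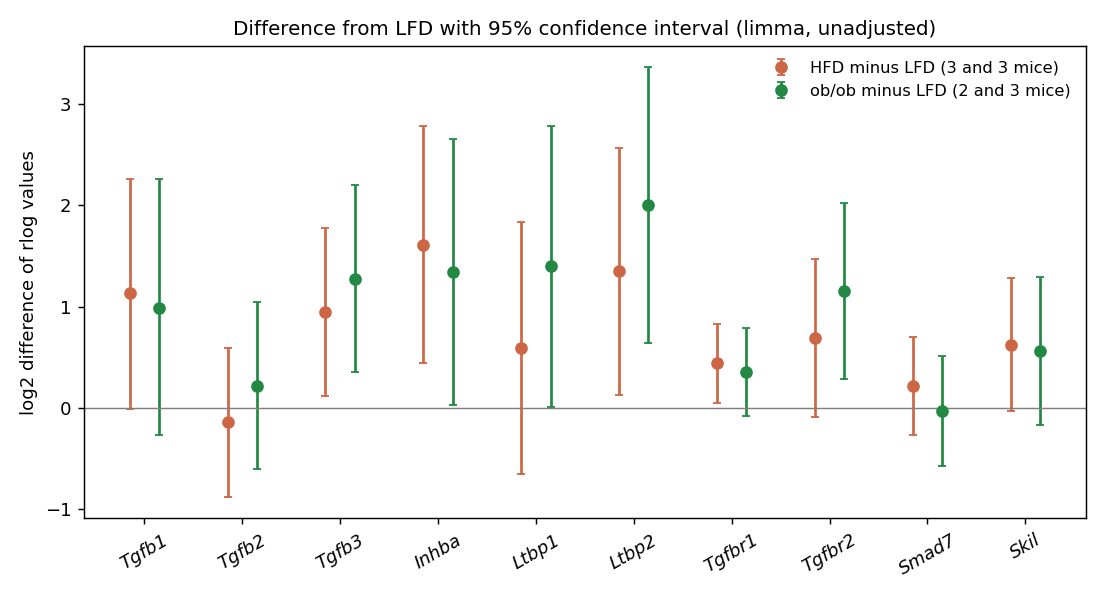
The log2 difference from LFD is plotted for each member in HFD and in ob/ob, with unadjusted 95% confidence intervals from limma. The largest values are those of Inhba in HFD (1.61) and Ltbp2 in ob/ob (2.0), and the intervals of Tgfb1, Tgfb2, Smad7 and Skil include 0 in both.

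The diet and genotype models were compared directly. In ob/ob against HFD, 5 members had the higher mean in ob/ob and 5 in HFD, with a median log2 difference of 0.13 and values from -0.27 (Inhba) to 0.81 (Ltbp1). None had an unadjusted p-value under 0.05, where 2.28% of all genes were higher and 1.63% lower, and every limma adjusted p-value of a member was 1.00. With 2 ob/ob mice that were themselves far apart for Ltbp1, such differences were not detectable here, and the test does not show that both models act alike.

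Other genes of the pathway were described by list, beside all genes, of which 8056 of 15047 had a higher mean in obese mice, 14.5% were higher with an unadjusted p-value under 0.05, and the median difference was 0.04. Of 19 latency and activation genes, 17 had a higher mean in obese mice, 12 of them with an unadjusted p-value under 0.05, and the median difference was 0.89. Furin, a convertase that cleaves the TGF-beta precursor, was the 1 gene of this list that was lower with an unadjusted p-value under 0.05 (-0.65 ± 0.24, SE, adjusted p = 0.151), and it is named after its values were seen. Fbn1 (1.87 ± 0.46, SE), which encodes the fibrillin that holds the LTBPs, and the proteases Mmp9 (1.63 ± 0.40) and Mmp14 (1.52 ± 0.39) differed most, each with a limma adjusted p of 0.107. Of 24 TGF-beta target genes, all 24 had a higher mean, 21 of them with an unadjusted p-value under 0.05, and the median difference was 1.30. Timp1 (2.29 ± 0.37, SE, adjusted p = 0.081), Col1a1 (2.17 ± 0.40, adjusted p = 0.0853) and Lox (2.14 ± 0.30, adjusted p = 0.0787), a protease inhibitor, a collagen and a collagen cross-linker, differed most. Many of the target genes are also matrix genes that fibroblasts express.

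The other lists were divided. Of 15 other ligand and binding protein genes measured, 8 had a higher mean in obese mice, with a median of 0.05. Fstl1 was higher by 1.44 ± 0.29 (SE, adjusted p = 0.0892) and Gdf11 by 1.11 ± 0.39 (adjusted p = 0.146), while Bmp7, which encodes a bone morphogenetic protein, was at -1.18 ± 0.43 (adjusted p = 0.151). Of 12 other receptor genes, 6 had a higher mean, with a median of 0.01, and the largest differences were -1.41 ± 0.52 (SE) for Acvr1c, -1.28 ± 0.68 for Bmpr1b and 0.67 ± 0.33 for Acvr1. Of 18 SMAD and regulator genes measured, 13 had a higher mean, with a median of 0.15. Pmepa1, a feedback inhibitor like Smad7 and Skil, was higher by 1.58 ± 0.49 (SE, adjusted p = 0.122), and Tgif2 by 0.75 ± 0.36 (adjusted p = 0.228). Smad6, the inhibitory SMAD of the BMP branch, was at -0.79 ± 0.30 (adjusted p = 0.157). No gene of these lists had a limma adjusted p-value under 0.05.

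Markers of some cell types moved with the members. The median of the members relative to the LFD mean was 0.13, 0.00 and -0.06 in LFD, 0.17, 0.89 and 1.03 in HFD, and 0.48 and 1.43 in ob/ob. The 17 fibroblast and stellate markers, all measured and all higher in obese mice, had medians of 0.16, 0.10 and -0.28 in LFD, 0.33, 1.04 and 1.09 in HFD, and 0.75 and 1.27 in ob/ob on the same scale. The target genes had 0.09, 0.14 and -0.23 in LFD, 0.32, 1.62 and 1.70 in HFD, and 0.96 and 1.84 in ob/ob. The order of the obese mice was thus the same for the members, the fibroblast markers and the target genes, from HFD replicate 1 at the bottom to ob/ob replicate 2 at the top, and none of the 26 acinar markers was higher in obese mice.

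**Figure D4:**
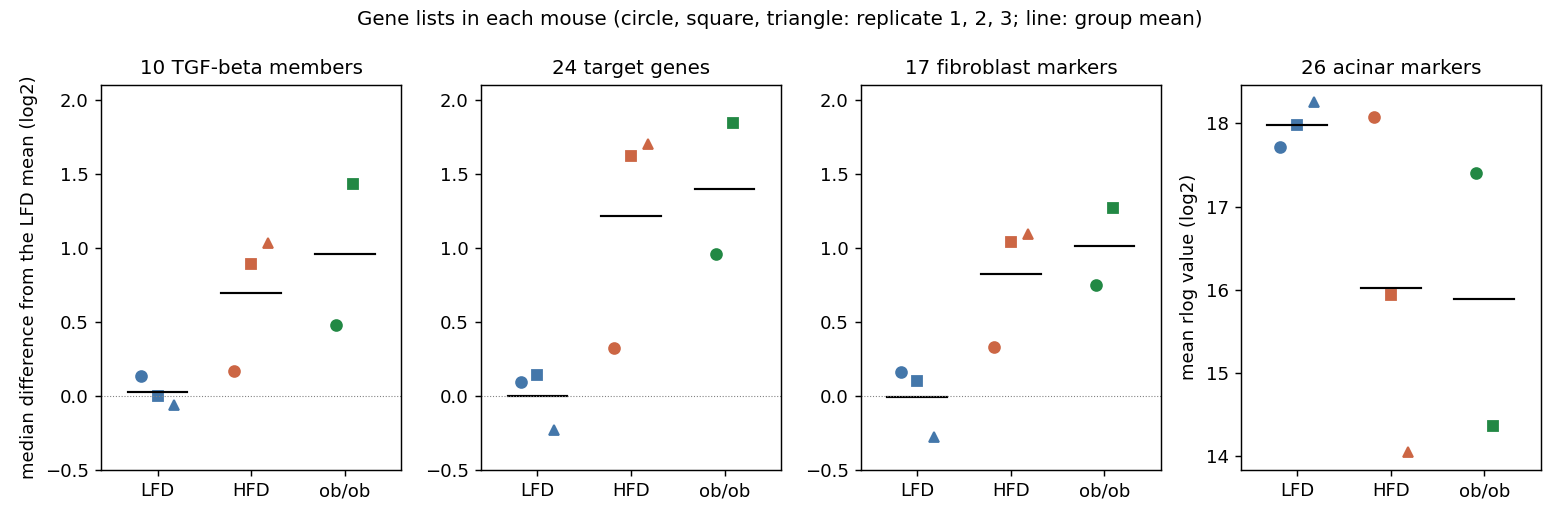
The median difference from the LFD mean (log2) of the 10 members, 24 target genes and 17 fibroblast markers, and the mean rlog value of the 26 acinar markers, are plotted for every mouse. HFD replicate 1 lies near the LFD mice in all 4 panels, and ob/ob replicate 2 is the highest in the first 3.

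With the acinar marker mean of each mouse as a covariate, the median obese minus LFD difference of the members was 0.29, against 0.95 without it, and only Ltbp2 (0.64 ± 0.18, SE) had an unadjusted p-value under 0.05, with a limma adjusted p of 0.264, where 6.78% of all genes were higher at that threshold. With the fibroblast marker mean as a covariate, the median was -0.30, none had an unadjusted p-value under 0.05, where 4.48% of all genes were higher, and 8 of the 10 members had a difference below -0.1, from -0.17 for Tgfb3 to -0.53 for Tgfb2. With 8 mice and marker means that themselves differed between the groups, these fits cannot separate the group from the makeup of the tissue. Macrophage markers were also higher in obese mice, 11 of 12 with a median of 1.39 and a mean rlog value of 8.47 to 9.06 in LFD, 9.19 to 9.99 in HFD and 9.85 to 10.59 in ob/ob. Neutrophil markers were higher for all 6 measured, with a median of 1.40, and ductal markers for 8 of 11, with a median of 0.41. The part of these cells in the members' differences was not tested. Endothelial and adipocyte markers were higher for 7 of 10 and 6 of 10, with medians of 0.07 and 0.04. T lymphocyte and islet markers were higher for 9 of 11 and 8 of 12, with medians of 0.30 and 0.35. B lymphocyte markers were higher for 2 of 9 and platelet and red cell markers for 3 of 8, with medians of -0.47 and -0.15.

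**Figure D5:**
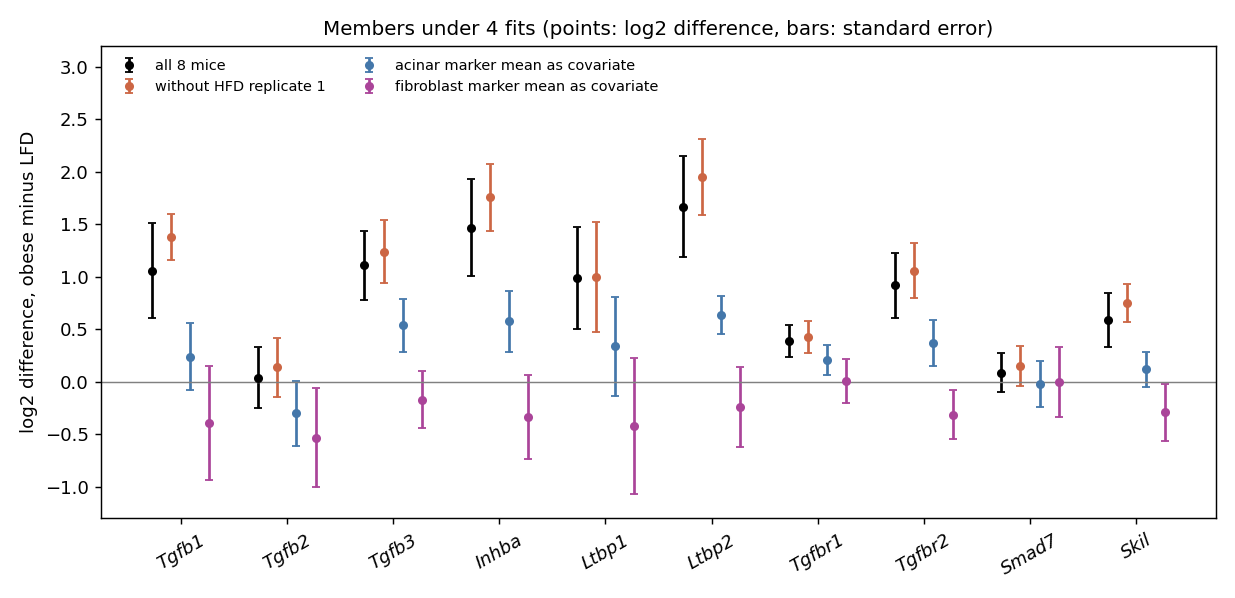
The obese minus LFD log2 difference of each member is plotted with its standard error under 4 fits: all 8 mice, without HFD replicate 1, and with the acinar or the fibroblast marker mean as a covariate. The values lie above 0 with all mice and higher without HFD replicate 1 for all 10, lower with the acinar covariate, and at or below 0.01 with the fibroblast covariate.

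The genes most like each ligand were named by Pearson's r of the rlog values over the 8 mice, as a description without a test, since all genes share the libraries and the makeup of the tissue. For Tgfb1 they were Ikbke (r = 0.993), Capn5 (0.993) and Efnb1 (0.991), and for Tgfb3 Adamts6 (0.996), Rest (0.992) and Pdgfc (0.990). For Inhba they were Pak1 (0.996), Slco2a1 (0.995) and Pmepa1 (0.993), the last a gene of the SMAD regulator list. For Tgfb2 the highest values were lower, for Ccdc47 (0.964), Cep112 (0.953) and Cdk5r1 (0.948). Among the members themselves, the highest r were those of Tgfb3 with Tgfbr2 (0.984), Tgfb1 with Skil (0.961) and Tgfb1 with Inhba (0.948), and Smad7 with Tgfb2 was at 0.015.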

How the data were processed

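Pancreas RNA was sequenced from 3 LFD, 3 HFD and 2 ob/ob mice, grouped by the labels. The authors quantified paired-end reads against Gencode transcripts of GRCm38 with Salmon 0.11.3, summarized them per gene with tximport, applied the rlog transformation of DESeq2 1.22.2 to the gene counts and deposited the resulting log2 values for 15047 genes. The filter on genes is not described, and the transformation lowers differences at low expression. Counts were not used here, so limma 3.58.1 in R 4.3.3 was run on all genes and 8 mice, with a mean per group, a variance trend and Benjamini-Hochberg adjustment, in place of the count test of the study. Ligand pairs were tested by exact permutation with SciPy 1.17.1 in Python 3.11.15.

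Named genes were the 10 members, the 3 genes with the largest obese minus LFD difference in each pathway list, and the 3 genes most like each ligand, plus Furin. Members, lists and tests were chosen with earlier results of these data known. Coordinates are those of Gencode on GRCm38, and promoters are from RefSeq on GRCm38.p6. On simulated data for HFD against LFD with 15047 genes, 0, 36, 94 and 98% of the altered genes were recovered at sizes of 2, 4, 8 and 16 residual SDs. Alternatives were no variance trend, only the groups compared, a minimum mean rlog of 5, median centring, quantile normalization, the replicate block, acinar and fibroblast covariates, and leaving out each mouse.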

Additional observations from a re-analysis of the deposited data

How the results depend on the processing

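Without a variance trend, with only the groups compared, or with genes limited to a mean rlog of 5 or more, no direction of a member against LFD changed. The main fit shares a variance over the 3 groups. With only the groups compared, 6 members had an unadjusted p-value under 0.05 in ob/ob, where 14.8% of all genes were higher. Tgfb1 in ob/ob then had a limma p of 0.0075 (adjusted p = 0.1), against 0.109 in the main fit. Ltbp1 in HFD had a limma p of 0.0287 (adjusted p = 0.197), against 0.308. No member passed adjustment, while 38 of all genes (0.253%) did in ob/ob against LFD. The groups of 3, 3 and 2 mice limit all tests, depth is unknown, and the cause of the changes below was not tested.

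With the acinar covariate, 1 member had an unadjusted p-value under 0.05 in HFD, 3 in ob/ob and 1 in obese against LFD, and 1 in ob/ob against HFD, where 6.03, 6.47, 6.78 and 4.33% of all genes were higher. The median differences against LFD were 0.21, 0.29 and 0.29, and Ltbp1 in HFD (-0.04), Tgfb2 in ob/ob (-0.13) and in obese (-0.30) and Smad7 in obese (-0.02) changed sign. With the fibroblast covariate, the counts against LFD were 0, 0 and 0 (3.95, 5.12 and 4.48% of all genes higher), that of ob/ob against HFD was 1 (Inhba, lower, as were 4.00% of all genes), and the medians were -0.13 in HFD, -0.25 in ob/ob, -0.30 in obese and -0.14 in ob/ob against HFD. The members that changed sign in HFD were Tgfb1 (-0.10), Tgfb3 (-0.13), Ltbp1 (-0.60), Ltbp2 (-0.27), Tgfbr2 (-0.35) and Skil (-0.12). In ob/ob they were Tgfb1 (-0.68), Tgfb2 (-0.44), Tgfb3 (-0.21), Inhba (-0.74), Ltbp1 (-0.23), Ltbp2 (-0.21), Tgfbr1 (-0.09), Tgfbr2 (-0.27) and Skil (-0.45). In obese they were Tgfb1 (-0.39), Tgfb2 (-0.53), Tgfb3 (-0.17), Inhba (-0.33), Ltbp1 (-0.42), Ltbp2 (-0.24), Tgfbr2 (-0.31), Skil (-0.29) and Smad7, at 0.00.

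Median centring put Tgfb2 at -0.05 in obese. Quantile normalization put it at -0.19 in obese and -0.02 in ob/ob, where 3 members had an unadjusted p-value under 0.05 and 9.70% of all genes were higher. Whether the replicate numbers pair the mice could not be decided. In deviations from the group means, same-numbered LFD and HFD mice correlated at -0.060, 0.113 and -0.281. Same-numbered LFD and ob/ob mice correlated at -0.097 and 0.128, and HFD and ob/ob mice at 0.592 and 0.303. Unlike-numbered mice ranged from -0.268 to 0.328 for LFD with HFD and from -0.592 to 0.44 for HFD with ob/ob. The deviations of 2 ob/ob mice are equal and opposite by construction, so their correlations are not separate evidence. With the replicate block, Smad7 in ob/ob was at 0.08, the counts with an unadjusted p-value under 0.05 were 5, 6 and 6 (12.7, 12.5 and 15.7% of all genes higher), and no adjusted call was gained.

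Leaving out each mouse in turn, where a lone ob/ob mouse is assumed to vary like the other groups, members with an unadjusted p-value under 0.05 numbered 1 to 7 in HFD, 0 to 6 in ob/ob and 2 to 8 in obese against LFD, and 0 to 1 in ob/ob against HFD. The share of all genes higher ranged from 6.04 to 19.8%, 4.03 to 15.4% and 8.44 to 21.2% against LFD. In ob/ob against HFD, with both ob/ob mice kept, 1.84 to 2.39% of all genes were higher and 1.15 to 4.17% lower. Adjusted calls numbered 0 to 4 in HFD, where 0.0 to 18.7% of all genes were called. In obese they numbered 0 to 6, where 0.0 to 22.1% of all genes were called. In ob/ob, with both ob/ob mice kept, they numbered 0, where 0.0 to 0.591% of all genes were called. The median ranged from 0.48 to 1.43 in ob/ob, from 0.57 to 1.17 in obese and from -0.25 to 0.52 in ob/ob against HFD. Tgfb2 ranged from -0.30 to 0.06 in HFD, -0.17 to 0.61 in ob/ob and -0.16 to 0.23 in obese, Smad7 from -0.18 to 0.07 in ob/ob and -0.05 to 0.19 in obese, and Tgfb3 minus Tgfb1 from -0.24 to 0.19.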
